A study of Mus musculus with 15 samples.

Results

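The genes described here drive the last stages of cell division: entry into mitosis, assembly of the spindle, attachment of chromosomes, separation of sister chromatids and cytokinesis, the cut that parts the daughter cells. They were chosen by gene symbol for their known roles and make up 35 of the 55984 genes in the count table. Of the 35, 31 had enough reads to be tested, and Ccnb1, Plk1, Bub1 and Ube2c did not.

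When a hepatocyte enters mitosis, cyclin-dependent kinase 1 bound to cyclin B starts the breakdown of the nuclear envelope and the assembly of the spindle, and the spindle checkpoint then holds the anaphase-promoting complex back until the chromosomes are attached. Once the complex is released, cyclin B and securin are degraded, separase cuts the rings that hold sister chromatids together, and the central spindle recruits the contractile ring. In the postnatal liver some hepatocytes divide their nuclei without dividing the cell, which gives cells with a pair of diploid nuclei, and in the resting adult liver few hepatocytes are in cycle.

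Hepatocytes from the livers of wild-type adult male C57BL/6JJcl mice were sorted by the fluorescence of the DNA dye Hoechst into a diploid population (2n-whole), all tetraploid cells (4n-whole) and parts of the tetraploid gate called 4n-bottom, which is enriched for binucleated cells, and 4n-top, which is enriched for mononucleated cells. No group was treated or mutated, 4n-top cells went through 1 round of sorting and so still contained binucleated cells, and after the sort 2n cells were spun harder and for longer than 4n cells. RNA was sequenced from individual mice, with libraries of mice 1 to 4 for 2n-whole, 4n-whole and 4n-bottom and of mice 2, 3 and 4 for 4n-top, 15 libraries in all. A mouse contributed a library to each of its populations, so the mouse was kept in the model as a replicate block.

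Total counts ranged from 22049498 to 42096421 per library. Values are given as CPM (counts scaled to a common library total after TMM normalization), and 3 counts, taken as the detection floor, corresponded to 0.0692 to 0.120 CPM depending on the library, a limit that covers counting error only. Albumin transcripts (Alb) made up 48530 to 73160 CPM. The summed level of 6 neutrophil markers ranged from 0 to 0.492 CPM, and of these S100a8 and S100a9 were at 0 counts in all 15 libraries. The markers of other liver cells were low but present: the summed level ranged from 3.70 to 33.5 CPM for 8 endothelial markers and from 0.374 to 7.93 CPM for 8 Kupffer cell markers, and among the biliary markers Sox9 alone reached 14.3 to 37.0 CPM. In bulk samples fewer cells of a type and less RNA per cell cannot be told apart.

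Many mitotic genes share a promoter layout in which the CHR element (cell cycle genes homology region, TTTGAA) and CCAAT boxes lie close to the start of transcription. The 220 bases before the start of the canonical transcript (GENCODE M39 on GRCm39) are shown 5′ to 3′ for the 5 members whose level differed between mice, and for Cdk1, in which a CHR lies among CCAAT boxes. Capitals mark TTTGAA and CCAAT and their reverse complements TTCAAA and ATTGG. All of these genes except Cenpa lie on the minus strand, and the windows are chr7:135318300-135318519 for Mki67, chr11:98915042-98915261 for Top2a, chr4:118294611-118294830 for Cdc20, chr5:30823901-30824120 for Cenpa, chr3:27208030-27208249 for Ect2 and chr10:69188769-69188988 for Cdk1.
Mki67: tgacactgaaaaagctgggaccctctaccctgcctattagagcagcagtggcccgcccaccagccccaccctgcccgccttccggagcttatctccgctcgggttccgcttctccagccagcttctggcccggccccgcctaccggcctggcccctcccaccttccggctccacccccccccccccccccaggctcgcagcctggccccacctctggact
Top2a: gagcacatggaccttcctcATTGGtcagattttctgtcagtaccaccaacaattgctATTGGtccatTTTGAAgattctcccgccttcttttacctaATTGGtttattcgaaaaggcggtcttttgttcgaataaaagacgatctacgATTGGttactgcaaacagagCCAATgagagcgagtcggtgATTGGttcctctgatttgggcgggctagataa
Cdc20: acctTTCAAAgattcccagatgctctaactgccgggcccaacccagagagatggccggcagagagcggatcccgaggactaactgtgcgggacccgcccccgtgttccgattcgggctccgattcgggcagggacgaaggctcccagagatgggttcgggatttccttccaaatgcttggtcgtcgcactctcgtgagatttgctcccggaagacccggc
Cenpa: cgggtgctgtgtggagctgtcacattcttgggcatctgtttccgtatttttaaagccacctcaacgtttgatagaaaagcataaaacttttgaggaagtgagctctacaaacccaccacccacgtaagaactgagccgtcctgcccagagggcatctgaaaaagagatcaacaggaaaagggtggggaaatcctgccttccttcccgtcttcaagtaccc
Ect2: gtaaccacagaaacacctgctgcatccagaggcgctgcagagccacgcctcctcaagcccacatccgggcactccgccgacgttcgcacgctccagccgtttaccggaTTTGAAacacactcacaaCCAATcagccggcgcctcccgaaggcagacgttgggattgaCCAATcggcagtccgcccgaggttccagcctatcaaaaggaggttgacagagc
Cdk1: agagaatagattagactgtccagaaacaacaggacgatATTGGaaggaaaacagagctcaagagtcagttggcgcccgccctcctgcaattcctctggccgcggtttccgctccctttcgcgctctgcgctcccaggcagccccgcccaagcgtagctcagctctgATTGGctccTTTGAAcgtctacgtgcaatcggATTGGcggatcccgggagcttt
In the bases shown, the Top2a window held a CHR beginning 153 bases before the start and 6 CCAAT boxes. A CHR of Cdk1 began 45 bases before the start, and a CHR of Ect2 began 112 bases before it. Further CHR matches lay outside the bases shown, beginning at base 4 from the start on in Top2a, base 12 in Cdk1 and base 42 in Ect2. The Mki67 and Cenpa windows held neither motif in the bases shown. Counting 250 bases before the start and 50 after it on both strands, a CHR was found in 18 of 35 members (51.4%) and in 3718 of 21770 protein-coding genes (17.1%). A CCAAT box was found in 25 members (71.4%) and in 39.9% of protein-coding genes, and both motifs in 15 members (42.9%) and in 7.45% of protein-coding genes. In the 250 bases before the start alone, a CHR was found in 8 members and in 3389 protein-coding genes. There a CCAAT box was found in 17 members and in 7946 protein-coding genes. Neighbouring CCAAT and ATTGG can overlap, and a match describes the letters only.

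Transcripts of the 35 genes were scarce in every population. Their summed level ranged from 21.5 to 45.8 CPM over the 15 libraries, with 23.6 to 35.8 CPM in 2n-whole, 24.3 to 45.8 CPM in 4n-whole, 21.5 to 37.0 CPM in 4n-bottom and 21.6 to 33.5 CPM in 4n-top, and these ranges overlapped. Between 56.1% and 86.8% of that sum came from 9 members with 3 or more counts in every library: Cdk1, Aurka, Mad2l1, Cenpa, Kif11, Ect2, Cks2, Incenp and Nek2. The other 26 members summed to 5.69 to 15.7 CPM in 2n-whole, 3.68 to 18.4 CPM in 4n-whole, 2.84 to 14.2 CPM in 4n-bottom and 3.28 to 12.2 CPM in 4n-top. In each library between 2 and 13 of the 35 members had 0 counts, and 23 members had 0 counts in at least 1 library.

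**Figure D1:**
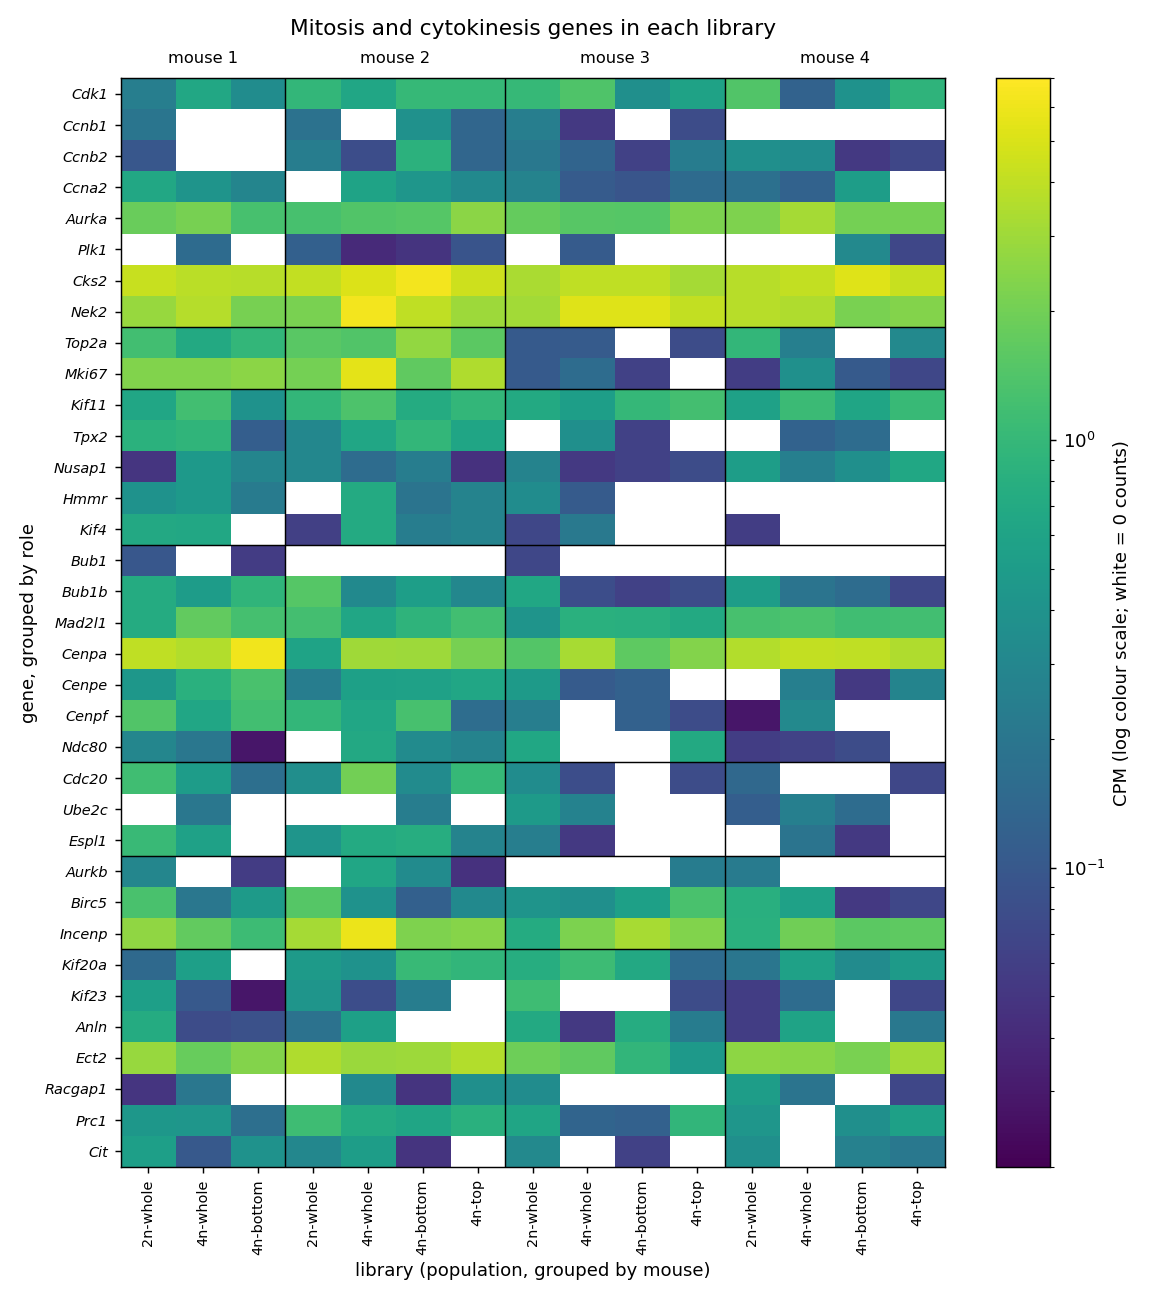
CPM of each of the 35 genes (rows, grouped by role) in each of the 15 libraries (columns, grouped by mouse) on a logarithmic colour scale, with 0 counts in white. Cks2, Nek2, Aurka, Cenpa, Ect2 and Incenp form bright rows in most libraries, and the Mki67 and Top2a rows are bright in mice 1 and 2 and mostly dark in mice 3 and 4.

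Divided by the length of the gene's exons, the level was highest for Cks2, with a median of 3.73 CPM per kb (range 2.93 to 5.80 over 15 libraries). Nek2 followed with 0.723 CPM per kb (0.440 to 1.30), and on this scale the Cks2 range lay above that of each other member. The length was the union of exons over all transcripts, 1092 bases for Cks2 and 13355 for Cenpa, and the order depends on it. In CPM without this division the Cks2 range (3.203 to 6.33) overlapped that of Cenpa (0.6031 to 6.225). Below Nek2 came Aurka at 0.472, Ect2 at 0.455, Incenp at 0.286 and Cenpa at 0.243 CPM per kb, and the ranges of these neighbours overlapped. For Ccnb1, Aurkb, Bub1 and Ube2c the median was 0. Reads from Cks2 may be split with the near-identical genes Gm12891, Gm15452, Gm19945 and Gm68574, and those of Nek2 with Gm58631.

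**Figure D2:**
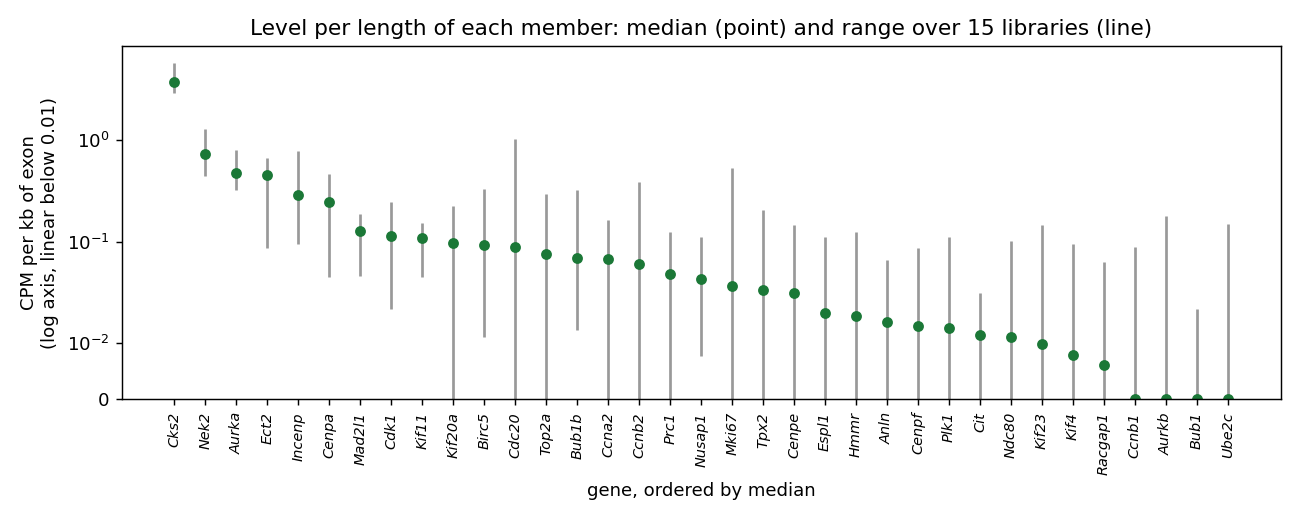
Median (points) and range (lines) of the level of each member over 15 libraries, in CPM per kb of exon on an axis that is logarithmic above 0.01 and linear below it. Cks2 lies above all others at a median of 3.73 CPM per kb, and 4 members have a median of 0.

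In each of the 4 comparisons of populations, 0 of the 31 tested members were called (edgeR quasi-likelihood F test, Benjamini-Hochberg adjusted). A call required the adjusted p-value to be under 0.05 and the log2 fold change to exceed 0.5 in size. With DESeq2 and the mouse in the model the number was also 0 in each. Positive log2 fold changes mean a higher level in the population named first.

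Whether tetraploid cells as a whole differed from diploid cells was asked by comparing 4n-whole with 2n-whole, where 0 members were called against 1.74% of all 17488 tested genes called higher and 1.73% called lower. These shares of all genes depended on the fit, with 607 genes called in all, 40 without the pairing by mouse, 244 to 1025 with 1 mouse left out (244 without mouse 4 and 365 without mouse 2) and 1197 after ComBat-seq and DESeq2. At an unadjusted p-value under 0.05, Cenpa and Nek2 were higher in 4n-whole and Bub1b was lower, 2 and 1 of 31, where 10.3% and 10.1% of all genes were. The log2 fold change was above 0 for 13 of 31 members, with a median of -0.16, and the median of all tested genes was -0.01. In the same comparison the median was -1.08 for 8 tested endothelial markers, -2.46 for 6 Kupffer cell markers and -2.81 for 4 biliary markers, whose part in the members' values was not tested.

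The part enriched for mononucleated cells, 4n-top, was compared with the part enriched for binucleated cells, 4n-bottom. Because 4n-top still contained binucleated cells, the authors hold that the differences seen were likely lessened. Here 0 members were called higher or lower, and 0.00572% of all genes were called higher and 0.00572% lower, 2 genes in all, against 29 without mouse 2 and 49 with DESeq2. At an unadjusted p-value under 0.05 the members numbered 0 in both directions, against 1.19% and 1.6% of all genes. The log2 fold change was above 0 for 18 of 31 members, with a median of 0.07 and a median over all genes of 0.00.

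Each part of the tetraploid gate was also compared with 2n-whole, and these comparisons share the 2n-whole libraries. In 4n-bottom 0 members were called, against 0.234% of genes higher and 0.229% lower, and at an unadjusted p-value under 0.05 there was 1 member higher (Cenpa) and 3 lower (Cdc20, Birc5 and Racgap1), against 5.52% and 4.64% of genes. In 4n-top 0 members were called, against 0.44% of genes higher and 0.52% lower, and at an unadjusted p-value under 0.05 there were 0 higher and 1 lower (Bub1b), against 5.99% and 5.31% of genes. The log2 fold change was above 0 for 9 of 31 members in both comparisons, with a median of -0.77 for 4n-bottom and -0.44 for 4n-top. These medians rest mostly on genes near the floor, some of which passed the filter through 2n-whole, and they are given as a description. In the same comparisons the median log2 fold change of the tested Kupffer cell markers was -1.59 for 4n-bottom and -3.81 for 4n-top, that of the endothelial markers -1.34 and -1.21, and that of the biliary markers -2.06 and -4.96, and their part was likewise not tested.

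**Figure D3:**
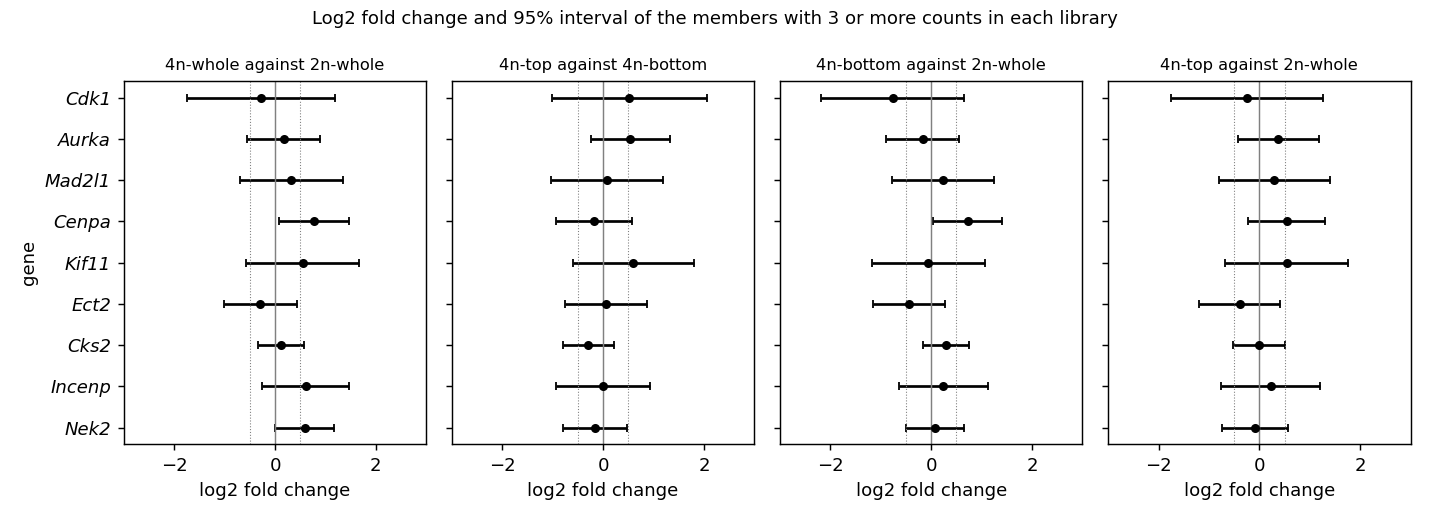
Log2 fold change (points) with its 95% interval (lines) from edgeR for the 9 members with 3 or more counts in every library, in the 4 comparisons of populations, with dotted lines at -0.5 and 0.5. The Cks2 and Nek2 intervals are the narrowest, and intervals that leave out 0 are those of Cenpa in 4n-whole and 4n-bottom against 2n-whole and of Nek2 in 4n-whole against 2n-whole.

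Entry into mitosis depends on Cdk1, its cyclins and the kinases around it. Cdk1, the kinase that starts mitosis, had 0.246, 0.965, 1.01 and 1.44 CPM in 2n-whole (mice 1 to 4) and 0.669, 0.641, 1.39 and 0.126 CPM in 4n-whole. In 4n-bottom Cdk1 had 0.343, 1.01, 0.374 and 0.394 CPM, and in 4n-top 1.01, 0.586 and 0.906 CPM (mice 2 to 4). The populations overlapped, 4n-bottom of mouse 2 stood above the other 4n-bottom libraries, and the log2 fold change of 4n-whole against 2n-whole was -0.28 with a 95% interval from -1.74 to 1.19. Cks2, a small protein that binds Cdk1 and helps it to act on its substrates, had 4.31, 4.13, 3.33 and 3.76 CPM in 2n-whole (mice 1 to 4) and 3.81, 5.13, 4.00 and 4.08 CPM in 4n-whole. In 4n-bottom Cks2 had 3.74, 6.33, 3.99 and 5.28 CPM, and in 4n-top 4.52, 3.2 and 4.32 CPM (mice 2 to 4). It was the most precisely measured member, and its log2 fold change was 0.12 (95% interval -0.34 to 0.58) for 4n-whole against 2n-whole and -0.29 (-0.80 to 0.21) for 4n-top against 4n-bottom. Nek2, a kinase that helps to part the centrosomes before mitosis, had 2.83, 2.17, 3.12 and 3.70 CPM in 2n-whole (mice 1 to 4) and 3.68, 6.25, 5.22 and 3.48 CPM in 4n-whole. In 4n-bottom Nek2 had 2.11, 4.00, 5.20 and 2.15 CPM, and in 4n-top 2.95, 4.10 and 2.37 CPM (mice 2 to 4). All populations overlapped for Nek2, although 4n-whole was above 2n-whole in 3 of 4 mice, with a log2 fold change of 0.59 (95% interval 0.01 to 1.17, adjusted p = 0.236, edgeR quasi-likelihood F test, Benjamini-Hochberg adjusted). Without mouse 2 the Nek2 value for 4n-whole was 0.30 (unadjusted p = 0.35, edgeR). Against 2n-whole, Nek2 had a log2 fold change of 0.08 (-0.51 to 0.66) in 4n-bottom and -0.09 (-0.74 to 0.56) in 4n-top.

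Aurka, the kinase that matures centrosomes and helps to build the spindle poles, had 1.84, 1.27, 1.77 and 2.24 CPM in 2n-whole (mice 1 to 4) and 2.08, 1.44, 1.52 and 3.16 CPM in 4n-whole. In 4n-bottom Aurka had 1.28, 1.49, 1.50 and 2.07 CPM, and in 4n-top 2.52, 2.19 and 2.06 CPM (mice 2 to 4). The 4n-top libraries were above 4n-bottom in mice 2 and 3 and level with it in mouse 4, with a log2 fold change of 0.54 and a 95% interval from -0.25 to 1.33. Aurka shares 794 bases of exon with Fam210b on the opposite strand, and the strand setting of the counting is not given in the sources used here. The cyclins were near the floor. Ccnb2, a cyclin B, had 0.0984, 0.241, 0.208 and 0.373 CPM in 2n-whole (mice 1 to 4) and 0, 0.0801, 0.133 and 0.347 CPM in 4n-whole. In 4n-bottom Ccnb2 had 0, 0.863, 0.0623 and 0.0525 CPM, and in 4n-top 0.139, 0.234 and 0.0697 CPM (mice 2 to 4). Its highest value was in 4n-bottom of mouse 2 and the other 4n-bottom libraries were below the floor. Ccna2, cyclin A, which acts from S phase into early mitosis and shares 513 bases of exon with Exosc9, had 0.664, 0, 0.278 and 0.172 CPM in 2n-whole (mice 1 to 4) and 0.412, 0.601, 0.106 and 0.126 CPM in 4n-whole. In 4n-bottom Ccna2 had 0.285, 0.432, 0.0935 and 0.525 CPM, and in 4n-top 0.323, 0.156 and 0 CPM (mice 2 to 4). Values of Ccna2 in the 4 populations overlapped. Ccnb1, the main mitotic cyclin B, reached at most 0.384 CPM, in 4n-bottom of mouse 2, and Plk1, a kinase needed for spindle poles and cytokinesis, at most 0.315 CPM, in 4n-bottom of mouse 4. Both had too few reads to be tested, and Ccnb1 reads may also be split with Ccnb1-ps and other near-identical copies.

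Chromosome structure is represented by a topoisomerase and by the antigen used to stain cycling cells. Mki67, which encodes Ki-67, the coat of mitotic chromosomes and a common proliferation marker, had 2.31, 2.05, 0.104 and 0.0574 CPM in 2n-whole (mice 1 to 4) and 2.31, 5.45, 0.160 and 0.379 CPM in 4n-whole. In 4n-bottom Mki67 had 2.51, 1.68, 0.0623 and 0.105 CPM, and in 4n-top 3.51, 0 and 0.0697 CPM (mice 2 to 4). Every library of mice 1 and 2 was at or above 1.68 CPM and every library of mice 3 and 4 at or below 0.379 CPM, so the mice did not overlap across that gap while the populations did. Top2a, the topoisomerase that untangles sister chromatids, had 1.18, 1.57, 0.104 and 0.976 CPM in 2n-whole (mice 1 to 4) and 0.695, 1.44, 0.106 and 0.253 CPM in 4n-whole. In 4n-bottom Top2a had 0.971, 2.69, 0 and 0 CPM, and in 4n-top 1.61, 0.0781 and 0.314 CPM (mice 2 to 4). Values of Top2a in mouse 3 were near the floor in every population, and 4n-bottom of mouse 2 was the highest library. The log2 fold change of 4n-whole against 2n-whole was 1.12 for Mki67 (95% interval -0.01 to 2.25, adjusted p = 0.248, edgeR quasi-likelihood F test, Benjamini-Hochberg adjusted). For Top2a it was -0.91 (-2.52 to 0.71).

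The spindle genes code for motors and microtubule-binding proteins. Kif11, the motor that pushes the spindle poles apart, had 0.640, 0.965, 0.695 and 0.574 CPM in 2n-whole (mice 1 to 4) and 1.18, 1.36, 0.533 and 1.07 CPM in 4n-whole. In 4n-bottom Kif11 had 0.400, 0.743, 0.997 and 0.630 CPM, and in 4n-top 0.969, 1.21 and 1.04 CPM (mice 2 to 4). For Kif11 the 4n-top libraries were all above the 2n-whole libraries by a narrow margin (a lowest 4n-top value of 0.969 CPM and a highest 2n-whole value of 0.965 CPM), with a log2 fold change of 0.54 and a 95% interval from -0.68 to 1.77, and the other pairs of populations overlapped. Kif11 was higher in 4n-top than in 4n-bottom in each of the 3 mice, with a log2 fold change of 0.60 and a 95% interval from -0.61 to 1.80. Tpx2, which activates Aurka and seeds microtubules around chromosomes, had 0.837, 0.302, 0 and 0 CPM in 2n-whole (mice 1 to 4) and 0.926, 0.641, 0.373 and 0.126 CPM in 4n-whole. In 4n-bottom Tpx2 had 0.114, 0.959, 0.0623 and 0.158 CPM, and in 4n-top 0.623, 0 and 0 CPM (mice 2 to 4). In mice 1 and 2 most Tpx2 values were above 0.3 CPM, and in 4n-top of mice 3 and 4 there were 0 counts. Nusap1, a protein that bundles spindle microtubules and shares exon sequence with Oip5 on the opposite strand, had 0.0492, 0.302, 0.278 and 0.517 CPM in 2n-whole (mice 1 to 4) and 0.463, 0.160, 0.0533 and 0.253 CPM in 4n-whole. In 4n-bottom Nusap1 had 0.285, 0.240, 0.0623 and 0.368 CPM, and in 4n-top 0.0461, 0.0781 and 0.662 CPM (mice 2 to 4). These Nusap1 values overlapped between populations and between mice.

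Hmmr, a microtubule-binding protein of the spindle poles, had 0.394, 0, 0.347 and 0 CPM in 2n-whole (mice 1 to 4) and 0.463, 0.721, 0.106 and 0 CPM in 4n-whole. In 4n-bottom Hmmr had 0.228, 0.192, 0 and 0 CPM, and in 4n-top 0.277, 0 and 0 CPM (mice 2 to 4). In mouse 4 all libraries had 0 Hmmr counts. Kif4, a motor carried on chromosome arms and later on the central spindle, had 0.689, 0.0603, 0.0694 and 0.0574 CPM in 2n-whole (mice 1 to 4) and 0.669, 0.721, 0.213 and 0 CPM in 4n-whole. In 4n-bottom Kif4 had 0, 0.240, 0 and 0 CPM, and in 4n-top 0.277, 0 and 0 CPM (mice 2 to 4). The 2n-whole library of mouse 1 stood above the other 2n-whole libraries, and outside mouse 2 both parts of the tetraploid gate had 0 Kif4 counts. Kif4 shares 708 bases of exon with Pdzd11 on the opposite strand.

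Kinetochore genes build the contact between chromosome and spindle, and the checkpoint genes watch over it. Cenpa, the histone H3 variant that marks the centromere, had 3.99, 0.603, 1.46 and 3.53 CPM in 2n-whole (mice 1 to 4) and 3.60, 3.04, 3.25 and 4.08 CPM in 4n-whole. In 4n-bottom Cenpa had 6.22, 2.97, 1.65 and 3.99 CPM, and in 4n-top 2.12, 2.38 and 3.48 CPM (mice 2 to 4). Cenpa was above 2n-whole in 4n-bottom of all 4 mice and in 4n-whole of 3 of 4 mice, although the groups overlapped because 2n-whole itself ran from 0.603 to 3.99 CPM. The log2 fold change was 0.78 for 4n-whole against 2n-whole (95% interval 0.08 to 1.47, adjusted p = 0.185) and 0.72 for 4n-bottom against 2n-whole (0.03 to 1.41, adjusted p = 0.459), with edgeR quasi-likelihood F tests, Benjamini-Hochberg adjusted. Between 4n-top and 4n-bottom it was -0.18 (-0.94 to 0.58). Without mouse 2, whose 2n-whole library had the lowest Cenpa value, the log2 fold change against 2n-whole was 0.415 for 4n-whole (unadjusted p = 0.211) and 0.344 for 4n-bottom (unadjusted p = 0.295, edgeR).

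Bub1b, which encodes the checkpoint protein BubR1, lies on chromosome 2 of GRCm39 from 118428684 to 118472076 and had 0.738, 1.48, 0.660 and 0.517 CPM in 2n-whole (mice 1 to 4) and 0.515, 0.321, 0.0799 and 0.190 CPM in 4n-whole. In 4n-bottom Bub1b had 0.914, 0.527, 0.0623 and 0.158 CPM, and in 4n-top 0.300, 0.0781 and 0.0697 CPM (mice 2 to 4). All 2n-whole libraries were above the 4n-top libraries and above the 4n-whole libraries, the latter by a narrow margin (a lowest 2n-whole value of 0.517 CPM and a highest 4n-whole value of 0.515 CPM), while 4n-bottom overlapped 2n-whole. Bub1b was lower in 4n-whole than in 2n-whole in 4 of 4 mice, by a fitted -1.87 on the log2 scale (standard error 0.86), and the adjusted p was 0.210 (edgeR quasi-likelihood F test, Benjamini-Hochberg adjusted). It was lower in 4n-top than in 2n-whole in 3 of 3 mice, with 2 counts in the 4n-top libraries of mice 3 and 4, by a fitted -2.43 (standard error 0.99), and the adjusted p in the same edgeR test was 0.321. After ComBat-seq adjustment for the mouse followed by DESeq2, Bub1b alone among the members was called in these comparisons. That was 1 of 31 members in each, where 6.84% of all genes were called for 4n-whole and 3.4% for 4n-top.

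Mad2l1, the checkpoint protein that blocks the anaphase-promoting complex, had 0.738, 1.21, 0.417 and 1.26 CPM in 2n-whole (mice 1 to 4) and 1.70, 0.641, 0.826 and 1.33 CPM in 4n-whole. In 4n-bottom Mad2l1 had 1.26, 0.911, 0.810 and 1.16 CPM, and in 4n-top 1.2, 0.703 and 1.18 CPM (mice 2 to 4). Its log2 fold changes in the 4 comparisons lay between 0.07 and 0.33, with 95% intervals that reached down to -1.04 and up to 1.40. Cenpe, a kinetochore motor that moves chromosomes to the spindle equator, had 0.443, 0.241, 0.486 and 0 CPM in 2n-whole (mice 1 to 4) and 0.823, 0.561, 0.106 and 0.253 CPM in 4n-whole. In 4n-bottom Cenpe had 1.31, 0.575, 0.125 and 0.0525 CPM, and in 4n-top 0.646, 0 and 0.279 CPM (mice 2 to 4). Its lowest values were in mice 3 and 4. Cenpf, a large kinetochore protein made late in the cycle, had 1.43, 0.965, 0.243 and 0.0287 CPM in 2n-whole (mice 1 to 4) and 0.643, 0.641, 0 and 0.316 CPM in 4n-whole. In 4n-bottom Cenpf had 1.2, 1.27, 0.125 and 0 CPM, and in 4n-top 0.162, 0.0781 and 0 CPM (mice 2 to 4). Both Cenpe and Cenpf had their highest values in libraries of mice 1 and 2 and overlapped between populations. Ndc80, which forms the link between kinetochore and microtubule, had 0.295, 0, 0.660 and 0.0574 CPM in 2n-whole (mice 1 to 4) and 0.206, 0.681, 0 and 0.0632 CPM in 4n-whole. In 4n-bottom Ndc80 had 0.0285, 0.336, 0 and 0.0788 CPM, and in 4n-top 0.277, 0.703 and 0 CPM (mice 2 to 4). Neither mice nor populations of Ndc80 separated. Bub1, a checkpoint kinase, was at 0 counts in 12 of 15 libraries and reached at most 0.0984 CPM, in 2n-whole of mouse 1, so it was not tested.

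The exit from mitosis runs through the anaphase-promoting complex and separase. Cdc20, the activator that gives the complex its targets at anaphase, lies on chromosome 4 from 118290098 to 118294610 and had 1.16, 0.362, 0.347 and 0.144 CPM in 2n-whole (mice 1 to 4) and 0.515, 2.00, 0.0799 and 0 CPM in 4n-whole. In 4n-bottom Cdc20 had 0.171, 0.336, 0 and 0 CPM, and in 4n-top 1.01, 0.0781 and 0.0697 CPM (mice 2 to 4). Cdc20 was lower in 4n-bottom than in 2n-whole in each of the 4 mice, nearly level in mouse 2, and in mice 3 and 4 the 4n-bottom libraries had 0 counts. The fitted log2 fold change was -3.16, a value that depends on the treatment of these 0 counts, with an adjusted p of 0.309 in edgeR quasi-likelihood F test, Benjamini-Hochberg adjusted. In mouse 2 Cdc20 was higher in 4n-top than in 4n-bottom, and in mice 3 and 4 both populations were under the floor (2 counts in each 4n-top library and 0 in each 4n-bottom library), so no fold is given. Espl1, separase, had 1.06, 0.422, 0.243 and 0 CPM in 2n-whole (mice 1 to 4) and 0.566, 0.721, 0.0533 and 0.190 CPM in 4n-whole. In 4n-bottom Espl1 had 0, 0.767, 0 and 0.0525 CPM, and in 4n-top 0.277, 0 and 0 CPM (mice 2 to 4). Espl1 was at or under 0.0525 CPM in every 4n-bottom library except that of mouse 2. Ube2c, the ubiquitin-conjugating enzyme of the complex, was at 0 counts in all 4n-top libraries, reached at most 0.486 CPM in 2n-whole of mouse 3, and was not tested.

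The chromosome passenger complex corrects faulty attachments and then guides cytokinesis. Incenp, its scaffold, had 2.63, 3.2, 0.729 and 0.833 CPM in 2n-whole (mice 1 to 4) and 1.70, 5.93, 2.18 and 1.96 CPM in 4n-whole. In 4n-bottom Incenp had 1.11, 2.28, 3.24 and 1.60 CPM, and in 4n-top 2.40, 2.31 and 1.64 CPM (mice 2 to 4). The 4n-whole library of mouse 2 stood above the other 4n-whole libraries, the populations overlapped, and the log2 fold change of 4n-whole against 2n-whole was 0.61 with a 95% interval from -0.25 to 1.47. Birc5, which encodes survivin and tethers the complex to centromeres, had 1.30, 1.51, 0.417 and 0.804 CPM in 2n-whole (mice 1 to 4) and 0.206, 0.401, 0.373 and 0.569 CPM in 4n-whole. In 4n-bottom Birc5 had 0.485, 0.120, 0.561 and 0.0525 CPM, and in 4n-top 0.323, 1.29 and 0.0697 CPM (mice 2 to 4). Birc5 was lower in 4n-whole than in 2n-whole in 4 of 4 mice and lower in 4n-bottom in 3 of 4, but the ranges overlapped. The log2 fold change was -1.33 for 4n-whole (95% interval -3.07 to 0.41) and -2.08 for 4n-bottom (-3.88 to -0.27, adjusted p = 0.395, edgeR quasi-likelihood F test, Benjamini-Hochberg adjusted). Aurkb, the kinase of the complex, had 0.295, 0, 0 and 0.230 CPM in 2n-whole (mice 1 to 4) and 0, 0.641, 0 and 0 CPM in 4n-whole. In 4n-bottom Aurkb had 0.0571, 0.336, 0 and 0 CPM, and in 4n-top 0.0461, 0.234 and 0 CPM (mice 2 to 4). Its highest values were in 4n-whole and 4n-bottom of mouse 2, and most other libraries had 0 counts.

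Cytokinesis genes act at the central spindle and the contractile ring, the step whose failure leaves a cell with a pair of nuclei. Ect2, the exchange factor that switches on RhoA at the division plane, lies on chromosome 3 from 27151371 to 27208029 and had 2.85, 3.47, 1.91 and 2.61 CPM in 2n-whole (mice 1 to 4) and 1.77, 2.92, 1.68 and 2.46 CPM in 4n-whole. In 4n-bottom Ect2 had 2.37, 3.00, 0.935 and 2.15 CPM, and in 4n-top 3.60, 0.469 and 3.13 CPM (mice 2 to 4). The lowest values were in 4n-top and 4n-bottom of mouse 3, the populations overlapped, and the log2 fold change of 4n-top against 4n-bottom was 0.05 with a 95% interval from -0.76 to 0.86. Ect2 was lower than in 2n-whole in 4 of 4 mice in 4n-whole (log2 fold change -0.29, 95% interval -1.01 to 0.43) and in 4n-bottom (-0.44, -1.16 to 0.28). In 4n-top it was higher than in 2n-whole in 2 of 3 mice. Racgap1, a centralspindlin subunit that recruits Ect2 and has a near-identical stretch in Gm1859, had 0.0492, 0, 0.347 and 0.517 CPM in 2n-whole (mice 1 to 4) and 0.206, 0.321, 0 and 0.190 CPM in 4n-whole. In 4n-bottom Racgap1 had 0, 0.0479, 0 and 0 CPM, and in 4n-top 0.369, 0 and 0.0697 CPM (mice 2 to 4). In 4n-bottom Racgap1 was under the floor in every library, and in 2n-whole it was under the floor in mice 1 and 2, so no fold is given. Kif23, the motor subunit of centralspindlin, had 0.541, 0.422, 1.15 and 0.0574 CPM in 2n-whole (mice 1 to 4) and 0.103, 0.0801, 0 and 0.158 CPM in 4n-whole. In 4n-bottom Kif23 had 0.0285, 0.240, 0 and 0 CPM, and in 4n-top 0, 0.0781 and 0.0697 CPM (mice 2 to 4). The 2n-whole libraries of mice 1, 2 and 3 held the highest Kif23 values, that of mouse 4 was under the floor, and the adjusted p for 4n-bottom against 2n-whole was 0.558 (edgeR quasi-likelihood F test, Benjamini-Hochberg adjusted).

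Kif20a, a motor that brings the passenger complex to the central spindle, had 0.148, 0.482, 0.764 and 0.201 CPM in 2n-whole (mice 1 to 4) and 0.540, 0.401, 1.12 and 0.569 CPM in 4n-whole. In 4n-bottom Kif20a had 0, 1.03, 0.685 and 0.341 CPM, and in 4n-top 0.946, 0.156 and 0.488 CPM (mice 2 to 4). These values overlapped between populations, and Kif20a shares 991 bases of exon with Cdc23 on the opposite strand. Prc1, which bundles the antiparallel microtubules of the central spindle, had 0.443, 1.15, 0.625 and 0.431 CPM in 2n-whole (mice 1 to 4) and 0.437, 0.721, 0.133 and 0 CPM in 4n-whole. In 4n-bottom Prc1 had 0.171, 0.623, 0.125 and 0.368 CPM, and in 4n-top 0.831, 0.938 and 0.557 CPM (mice 2 to 4). In mice 3 and 4 the 4n-whole values of Prc1 were the lowest of each mouse's populations or close to it, and Prc1 shares 670 bases of exon with Rccd1. Anln, anillin, which scaffolds the contractile ring, had 0.738, 0.181, 0.695 and 0.0574 CPM in 2n-whole (mice 1 to 4) and 0.0772, 0.561, 0.0533 and 0.600 CPM in 4n-whole. In 4n-bottom Anln had 0.0857, 0, 0.748 and 0 CPM, and in 4n-top 0, 0.234 and 0.209 CPM (mice 2 to 4). Among 4n-bottom libraries Anln was above the floor in mouse 3 and at the floor or at 0 elsewhere. Cit, citron kinase of the midbody, had 0.541, 0.302, 0.312 and 0.373 CPM in 2n-whole (mice 1 to 4) and 0.103, 0.521, 0 and 0 CPM in 4n-whole. In 4n-bottom Cit had 0.400, 0.0479, 0.0623 and 0.263 CPM, and in 4n-top 0, 0 and 0.209 CPM (mice 2 to 4). In 2n-whole Cit was above the floor in all 4 mice, between 0.302 and 0.541 CPM, and in 4n-top it was above the floor in mouse 4 alone, with an adjusted p of 0.631 for 4n-top against 2n-whole (edgeR quasi-likelihood F test, Benjamini-Hochberg adjusted). In 4n-bottom, Ect2, Kif23, Prc1 and Cit were lower than in 2n-whole in 4 of 4 mice, Racgap1 and Anln in 3 of 4 and Kif20a in 2 of 4. In 4n-whole, Ect2 and Prc1 were lower in 4 of 4 mice and Kif23 and Cit in 3 of 4. There Racgap1 and Anln were lower in 2 of 4 mice and Kif20a in 1 of 4. For 4n-top, Cit was lower in 3 of 3 mice, Kif23, Racgap1 and Anln in 2 of 3, and Ect2, Prc1 and Kif20a in 1 of 3. These tallies share the 2n-whole libraries, and directions were not counted over all genes. Many of the values behind them were near the floor, and no cytokinesis member was called.

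Between mice, some members did pass the test. Libraries of a mouse come from the same liver, so a difference between mice cannot be told apart from a difference between preparations or sorts. With the population kept in the model, 5 of 31 members (16.1%) differed between the 4 mice, against 19.2% of all tested genes (adjusted p-value under 0.05, edgeR quasi-likelihood F test, Benjamini-Hochberg adjusted), so the share among members was close to that of all genes. The 5 were Mki67, Top2a, Cdc20, Cenpa and Ect2. At an unadjusted p-value under 0.05 (edgeR) there were 10 of 31, but all genes were not counted at that threshold, so this number is a description.

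Mki67, on chromosome 7 from 135291513 to 135318299, averaged 2.38 ± 0.115 CPM (SD, n = 3 libraries) in mouse 1, 3.17 ± 1.71 CPM (n = 4) in mouse 2, 0.0816 ± 0.0675 CPM (n = 4) in mouse 3 and 0.153 ± 0.152 CPM (n = 4) in mouse 4. The adjusted p of this difference was 4.22e-08 (edgeR quasi-likelihood F test, Benjamini-Hochberg adjusted), the smallest of the members. Behind it stood 68 to 152 counts per library in mouse 2 and 0 to 6 in mouse 3. Mki67 has a near-identical stretch of 216 bases in Gm44521.

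Top2a, on chromosome 11 from 98883769 to 98915062, averaged 0.949 ± 0.244 CPM (SD, n = 3 libraries) in mouse 1, 1.83 ± 0.576 CPM (n = 4) in mouse 2, 0.0722 ± 0.0498 CPM (n = 4) in mouse 3 and 0.386 ± 0.417 CPM (n = 4) in mouse 4. Mouse 4 overlapped mouse 1 through its 2n-whole library, at 0.976 CPM, and the adjusted p was 0.00115 (edgeR quasi-likelihood F test, Benjamini-Hochberg adjusted). Cdc20 averaged 0.614 ± 0.50 CPM in mouse 1, 0.929 ± 0.782 CPM in mouse 2, 0.126 ± 0.152 CPM in mouse 3 and 0.0533 ± 0.0686 CPM in mouse 4 (SD over the same libraries), with an adjusted p of 0.0106 in the edgeR test. Cdc20 lost its call when mouse 2 (adjusted p = 0.179, edgeR) or mouse 4 (adjusted p = 0.0624, edgeR) was left out.

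Cenpa, on chromosome 5 from 30824121 to 30842921, and Ect2 had another order of mice. Cenpa averaged 4.60 ± 1.42 CPM in mouse 1, 2.19 ± 1.13 CPM in mouse 2, 2.19 ± 0.813 CPM in mouse 3 and 3.77 ± 0.306 CPM in mouse 4 (adjusted p = 0.0271, edgeR), and Ect2 averaged 2.33 ± 0.541, 3.25 ± 0.337, 1.25 ± 0.665 and 2.59 ± 0.410 CPM in mice 1 to 4 (adjusted p = 0.0337, edgeR). For Cenpa every library of mice 1 and 4 was at or above 3.48 CPM and every library of mice 2 and 3 at or below 3.25 CPM, while mouse 1 overlapped mouse 4 and mouse 2 overlapped mouse 3. For Ect2 all libraries of mouse 2 were above those of mice 1 and 3, and those of mouse 4 were above those of mouse 3, while the other pairs of mice overlapped. Without mouse 1 the adjusted p of Cenpa was 0.0806, and without mouse 2 or mouse 3 that of Ect2 was 0.0801 or 0.683 (edgeR).

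**Figure D4:**
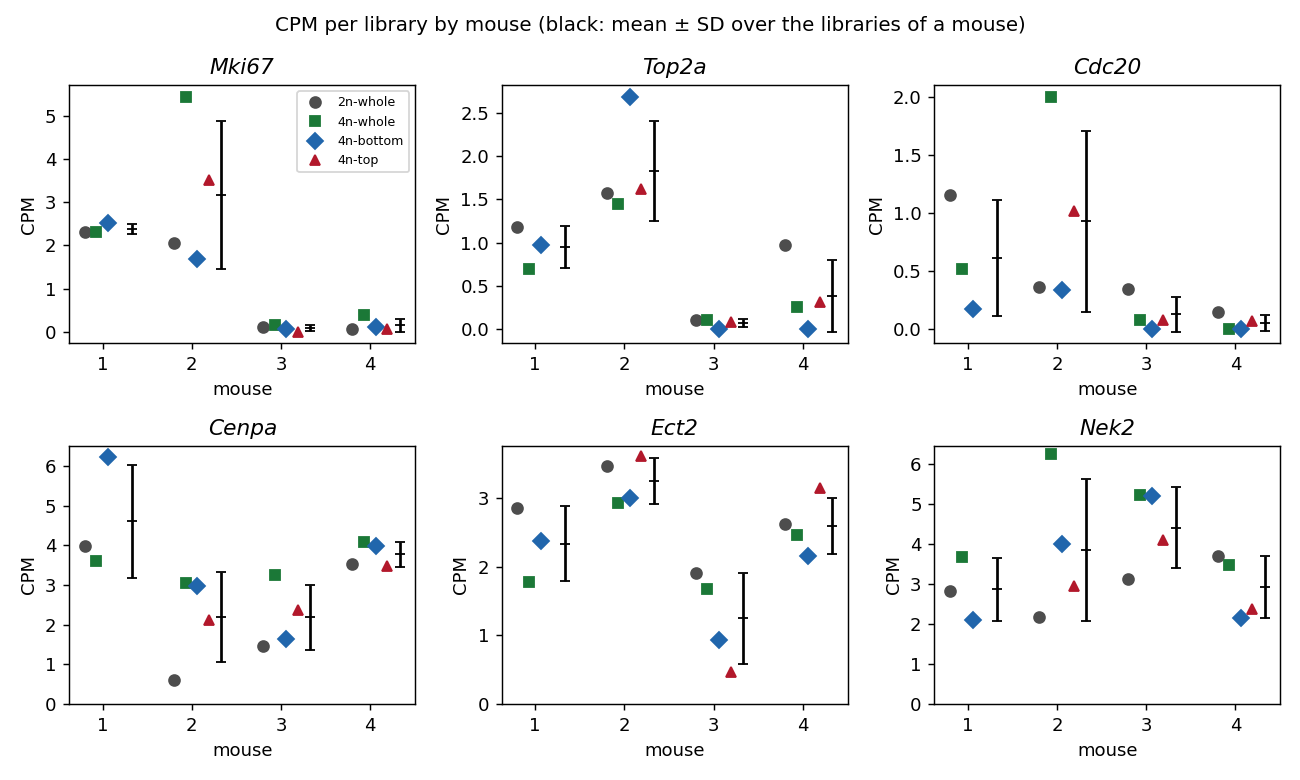
CPM of the 5 members that differed between mice, and of Nek2, which was not called, in each library by mouse, with the population as symbol and black bars for the mean ± SD over the libraries of a mouse. Mki67 lies at or above 1.68 CPM in mice 1 and 2 and at or below 0.379 CPM in mice 3 and 4, whereas the mice overlap for Nek2.

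The summed level of the 35 genes was 28.2 to 35.8 CPM in mouse 1, 30.3 to 45.8 CPM in mouse 2, 21.5 to 24.3 CPM in mouse 3 and 22.5 to 26.6 CPM in mouse 4. The 26 members with few reads summed to 9.31 to 15.7 CPM in mouse 1, 12.2 to 18.4 CPM in mouse 2, 2.84 to 9.13 CPM in mouse 3 and 3.05 to 5.69 CPM in mouse 4. The 9 better measured members summed to 18.9 to 20.2, 18.0 to 27.4, 14.44 to 20.6 and 19.4 to 21.7 CPM in mice 1 to 4, and those ranges overlapped. The markers of endothelial cells, which line the liver sinusoids, also differed between mice, in 6 of 8 cases, where 19.2% of all tested genes did. Their summed level was 19.9 to 23.6 CPM in mouse 1, 21.6 to 33.5 CPM in mouse 2, 4.55 to 17.0 CPM in mouse 3 and 3.70 to 18.2 CPM in mouse 4. Of 8 hepatocyte markers 4 differed too. So did 9 of 24 abscission and contractile ring genes, 6 of 20 transcription control genes, 1 of 17 cohesin and condensin genes and 0 of 16 of the anaphase-promoting complex. The highest medians of the 8 endothelial markers were those of Ptprb (6.54 CPM, range 1.11 to 10.6), Stab2 (4.52 CPM, 1.42 to 12.98) and Kdr (2.37 CPM, 0.249 to 5.07). The other endothelial markers had medians at or under 0.695 CPM. Among these, Pecam1 ranged from 0.0623 to 2.06 CPM and Lyve1 was at 0 counts in 8 of 15 libraries. Among Kupffer cell markers 0 of 6 tested genes differed between mice, and the summed level was highest in 2n-whole of mouse 4. At an unadjusted p-value under 0.05 in the edgeR quasi-likelihood F test there were 3, again without a count over all genes. The part of these cells in the members' differences between mice was not tested.

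**Figure D5:**
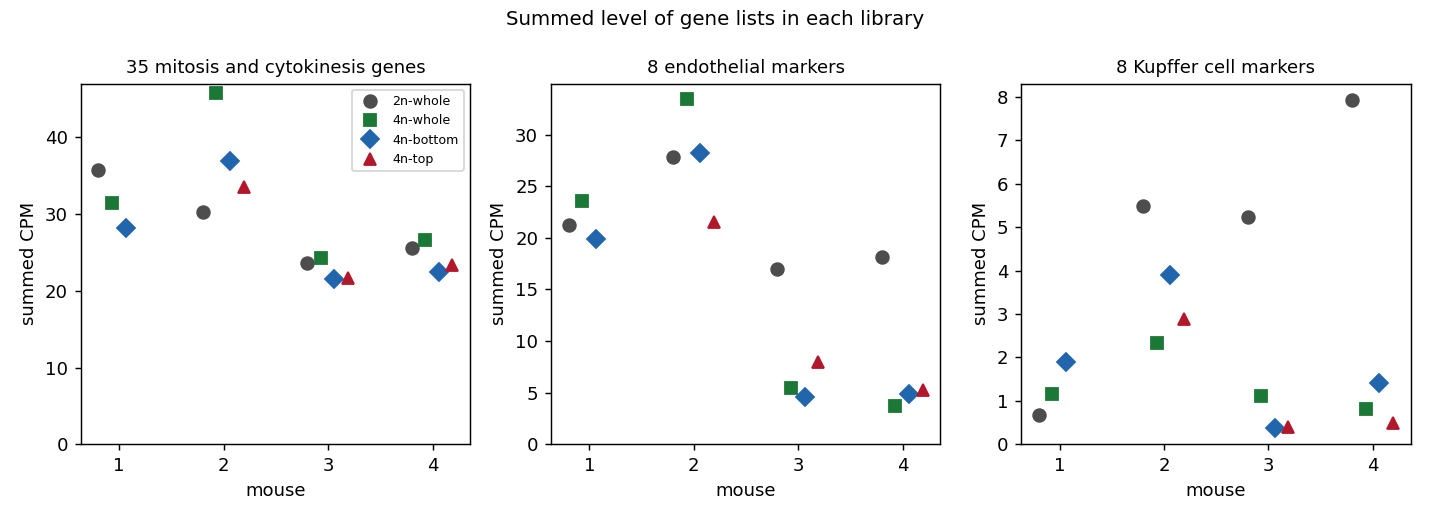
Summed CPM of the 35 mitosis and cytokinesis genes, of 8 endothelial markers and of 8 Kupffer cell markers in each library by mouse, with the population as symbol. The members and the endothelial markers both have their highest library in 4n-whole of mouse 2 (45.8 and 33.5 CPM), and the Kupffer cell markers in 2n-whole of mouse 4 (7.93 CPM).

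Other genes of the same machinery were counted in lists set by function. Of 54 further mitosis genes 40 were tested and 0 were called in any comparison of populations, with 2 higher and 1 lower at an unadjusted p-value under 0.05 for 4n-whole against 2n-whole (edgeR). Of all tested genes 1.74% were called higher and 1.73% lower in that comparison, and 10.3% and 10.1% passed the unadjusted threshold. Pttg1, securin, which restrains separase, averaged 11.9 ± 2.40 CPM in 2n-whole (SD, n = 4) and 17.1 ± 1.57 CPM in 4n-whole (n = 4), without overlap. Its log2 fold change was 0.52 (standard error 0.17) and the adjusted p was 0.0656 (edgeR quasi-likelihood F test, Benjamini-Hochberg adjusted). Pttg1 was called without mouse 1 (adjusted p = 0.0223, edgeR), with no filter on low counts (adjusted p = 0.0297, edgeR) and after ComBat-seq and DESeq2 (adjusted p = 0.00917). Cdca3, a trigger of mitotic entry, averaged 0.522 ± 0.312 CPM in 4n-bottom (SD, n = 4) and 1.78 ± 1.01 CPM in 4n-top (n = 3). The difference of 2.23 on the log2 scale (standard error 0.66) did not pass the adjusted test.

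All 16 tested genes of the anaphase-promoting complex and its inhibitors had 0 calls, with 0 higher and 1 lower at an unadjusted p-value under 0.05 for 4n-whole against 2n-whole (edgeR), against 10.3% and 10.1% of all genes. Of 17 cohesin and condensin genes, which hold and fold chromosomes, Smc4 was called, and at an unadjusted p-value under 0.05 in edgeR 2 of the 17 were higher and 6 lower in 4n-whole than in 2n-whole, where 10.3% and 10.1% of all genes were. Smc4, a condensin ATPase, fell from 14.8 ± 2.72 CPM (SD, n = 4) in 2n-whole to 8.51 ± 2.38 CPM (n = 4) in 4n-whole, without overlap, with a log2 fold change of -0.81 (standard error 0.19). Its adjusted p was 0.0128 (edgeR quasi-likelihood F test, Benjamini-Hochberg adjusted). The call of Smc4 was lost without mouse 2 (log2 fold change -0.50, adjusted p = 0.182) or mouse 4 (-0.84, adjusted p = 0.0534), without the pairing by mouse (adjusted p = 0.138) and with the compared populations fitted alone (adjusted p = 0.0749, edgeR). The condensin subunit Ncapd2 had 3.53 ± 0.804 CPM in 2n-whole (SD, n = 4) and 5.93 ± 1.72 CPM in 4n-whole (n = 4) and was not called (log2 fold change 0.73, standard error 0.25), except without mouse 1 (adjusted p = 0.0421, edgeR) and after ComBat-seq and DESeq2 (adjusted p = 0.0114).

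Among 20 genes of cell cycle transcription control, E2f8 was called higher in 4n-whole than in 2n-whole, where 1.74% of all genes were. At an unadjusted p-value under 0.05 (edgeR) 2 of the 20 were higher and 0 lower, against 10.3% and 10.1% of all genes. E2f8, a repressor of cell cycle genes known for its part in hepatocyte polyploidy, rose from 2.17 ± 0.806 CPM (SD, n = 4) in 2n-whole to 5.94 ± 3.28 CPM (n = 4) in 4n-whole. It was higher in 4n-whole in 3 of 4 mice and slightly lower in mouse 3 (2.64 CPM in 2n-whole and 2.50 CPM in 4n-whole), and the ranges overlapped. Its difference was 1.30 on the log2 scale (standard error 0.31), with an adjusted p of 0.0136 (edgeR quasi-likelihood F test, Benjamini-Hochberg adjusted). The call of E2f8 was lost without mouse 1 (log2 fold change 1.17, adjusted p = 0.059) or mouse 4 (1.09, adjusted p = 0.216), without the pairing by mouse (adjusted p = 0.235) and with the compared populations fitted alone (adjusted p = 0.0519, edgeR). In 4n-bottom and 4n-top against 2n-whole the E2f8 values were 0.71 (standard error 0.31) and 1.00 (standard error 0.34), and neither was called. Of 24 tested genes of abscission and the contractile ring 0 were called, with 3 higher and 5 lower at an unadjusted p-value under 0.05 for 4n-whole against 2n-whole (edgeR), against 10.3% and 10.1% of all genes. Chmp4b, of the ESCRT filaments that cut the midbody, had a log2 fold change of 0.44 for 4n-whole against 2n-whole and Septin11 one of -0.50, with adjusted p-values of 0.0271 and 0.0343 (edgeR quasi-likelihood F test, Benjamini-Hochberg adjusted) but fold changes short of the threshold. Chmp4b passed the fold change threshold without mouse 1 (0.54) or mouse 2 (0.52), and Septin11 with DESeq2 (-0.51) and in other alternatives. Over the alternatives the Septin11 value ran from -0.594 to -0.459, and with a mouse left out its lowest was -0.546.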

How the data were processed

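RNA was sequenced from sorted hepatocytes of individual mice, in 15 libraries. Reads were aligned by the authors to GRCm39 (STAR 2.7.11a per the submitters' processing notes) and assigned to genes with featureCounts. The authors deposited these counts unnormalized and before their ComBat-seq adjustment for the mouse. The gene annotation, the strand setting and the handling of read pairs are not given in the sources used here. Between 74.2% and 81.4% of counts from 1 to 10 in a library were even, so 3 counts may stand for fewer fragments. The authors left out the 4n-top library of mouse 1 for poor RNA quality.

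Counts were tested with edgeR 4.0.16 in R 4.3.3 (TMM normalization, low-count filter with min.count 10 and min.total.count 15, quasi-likelihood F test, population as factor and mouse as replicate block, all 15 libraries), with Benjamini-Hochberg adjustment over 17488 genes. The mouse itself was tested in the same model. In the 4 comparisons calls required the adjusted p-value to be under 0.05 and the log2 fold change to exceed 0.5 in size. Libraries of the same subject number were taken as the same mouse, since the study adjusted for individual mice. After removal of population means, the Pearson correlation of residuals across genes was 0.158 on average for libraries of the same mouse (0.0845 to 0.227). P-values of the 4 comparisons set the difference between populations against the spread left once population and mouse were fitted. That spread was estimated over all 15 libraries and moderated with values of other genes. Those of the test between mice rest on the spread of libraries sorted from the same mouse, which are not independent animals. The code was checked on simulated data.

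The 35 members and the other lists were chosen with earlier results of these data known. The text names all members, at most 3 genes of each other list with the smallest p-values, and marker sums. The alternatives were no replicate block, DESeq2 1.42.0 size factors or tests, ComBat-seq (sva 3.50.0) then DESeq2, no filter, the compared populations only, counts halved, counts thinned to 22049498, and each mouse left out. Positions, exon lengths and promoters came from GENCODE M39 on GRCm39, with exon length as the union over transcripts. A near-identical copy had at least 200 bases at 95% identity or more.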

Additional observations from a re-analysis of the deposited data

Results flagged for a closer look

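In 96 groups of 4 libraries (31 tested members and the 35-gene sum in 2n-whole, 4n-whole and 4n-bottom), 12 had a library far from the other libraries of its population, with a gap to them past Dixon's critical share of the group's range. Chance flags about 1 in 20 groups, and groups of genes near 0 counts pass it easily. Of the 12, 8 lay in 4n-bottom of mouse 2. There Cdk1 reached 1.01 CPM (0.343 to 0.394 in the other 4n-bottom libraries), Tpx2 0.959 CPM (0.0623 to 0.158), Ccnb2 0.863 CPM (0 to 0.0623) and Espl1 0.767 CPM (0 to 0.0525). In the same library Aurkb reached 0.336 CPM (0 to 0.0571), Kif23 0.240 CPM (0 to 0.0286), Kif4 0.240 CPM (0 in the other libraries) and Racgap1 0.0479 CPM (0 in the other libraries), the last under the detection floor. In 4n-whole of mouse 2, Incenp reached 5.93 CPM (1.70 to 2.18) and Aurkb 0.641 CPM (0 in the other libraries). Anln was at 0.748 CPM in 4n-bottom of mouse 3 (0 to 0.0857), and Kif4 at 0.689 CPM in 2n-whole of mouse 1 (0.0574 to 0.0694). The summed level of the 8 endothelial markers was 28.2 CPM in 4n-bottom of mouse 2 and 33.5 CPM in 4n-whole of mouse 2, the highest of their populations, and its part in these values was not tested.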

How the results depend on the processing

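The number of members called between populations was 0 under every alternative in every comparison, leaving out each mouse included (lowest 0, highest 0), except that ComBat-seq followed by DESeq2 called 1, Bub1b, for 4n-whole against 2n-whole (log2 fold change -1.83, adjusted p = 0.0191) and 1, again Bub1b, for 4n-top against 2n-whole (-2.40, adjusted p = 0.0128). Of all genes, ComBat-seq followed by DESeq2 called 6.84% and 3.4% in these comparisons. Without the replicate block that pairs libraries by mouse, 0 members were called in each comparison, with 0, 0, 1 and 1 at an unadjusted p-value under 0.05 in edgeR. Between mice, 5 of 31 members were called, where 19.2% of all genes were. DESeq2 called 8 of 31 (23.6% of all genes). With no filter on low counts 8 of 35 were called (9.04% of 39304 genes), and in both Cenpf, Tpx2 and Espl1 were added. Counts halved gave 7 of 23 (24.5% of all genes). With each mouse left out, 3 (without mouse 2) to 5 were called, where 11.5% to 17% of all genes were. Mki67 and Top2a were called in all 9 alternatives of that test. Alternative log2 fold changes were taken for the 9 members with 3 or more counts in every library. Bub1b, Cdc20, Birc5 and Racgap1 were added in the comparisons where their unadjusted p-value was under 0.05 (edgeR). Other members, Mki67 and Top2a among them, were left out. Of these 489 values, 460 kept their sign and side of the threshold, 2 were newly called, and 27 changed sign with neither value under an unadjusted p-value of 0.05. The cause was not tested. The calls over all genes moved more: for 4n-whole against 2n-whole 607 genes were called, from 40 (no block) to 1197 (ComBat-seq and DESeq2), for 4n-top against 4n-bottom 2, from 0 to 49, for 4n-bottom against 2n-whole 81, from 0 to 309, for 4n-top against 2n-whole 168, from 2 to 595, and between mice 19.2%, from 9.04% (no filter) to 24.5% (counts halved). Depth limits most members: 26 of 35 had under 3 counts in at least 1 library.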
